A study of Arabidopsis thaliana with 6 samples.

Results

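The genes described here are 10 genes of flavonoid and anthocyanin synthesis, chosen by locus identifier from the 32833 genes listed in the count files. They fall into 5 early enzymes (*CHS*, *CHI*, *F3H*, *F3'H* and *FLS1*), 2 late enzymes (*DFR* and *LDOX*) and 3 MYB regulators (*PAP1*, *MYB12* and *MYBL2*). RNA-seq libraries were made from 14-day-old whole *Arabidopsis thaliana* seedlings of the mutants *fio1-2* and *fio1-1* and of wild type Col-0 (WT), with 2 libraries per genotype. *FIO1* encodes an RNA adenosine methyltransferase, and the comparisons ask which transcripts change when it is impaired. All seedlings were untreated and grew in long days with 16 h of light. In *fio1-1* a chemically induced change at a splice site removes a few amino acids. The labels name the other mutant *fio1-2*, whereas the study's text uses that name for a T-DNA line and *fio1-5* for its own CRISPR line, which *fio1-2* is taken to be here. Each allele is represented by a single line, and the labels and the methods of the study disagree on soil or agar as the growth medium. The replicates are biological replicates by the study's account. The p-values rest on the spread between libraries of a genotype, estimated for the most part from all tested genes together.

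Flavonoids are made from phenylalanine through the general phenylpropanoid pathway. Chalcone synthase then builds the flavonoid skeleton, from which one branch leads to flavonols, the colourless compounds that absorb ultraviolet light, and another leads to anthocyanins, the red and purple pigments. In Arabidopsis the early enzymes and flavonol synthase are switched on by the MYB factors MYB12, MYB11 and MYB111, whereas the late anthocyanin enzymes need a complex of a MYB such as PAP1, a bHLH factor and TTG1. MYBL2 is a small MYB protein that inhibits this complex.

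Total counts lay between 9717111 and 13055457 per library, a 1.34-fold range. Levels are given as CPM, the counts of a gene per 1000000 counts of its library, scaled by TMM factors. Of the 10 genes, 9 passed the filter on low counts, and *PAP1* did not. Differences were tested with limma-voom across 21268 genes. A gene is said to have risen or fallen at an adjusted p (Benjamini-Hochberg) under 0.05, and a 2-fold call required in addition a log2 fold change of at least 1 in size. For 1 gene in 2 libraries against 2, the smallest p of an exact permutation test (two-sided) is 0.333, and no such test was made. *FIO1* itself (AT2G21070) was at 6.97 and 8.64 CPM in *fio1-2* and at 8.23 and 8.53 CPM in *fio1-1*, against 11.1 and 8.94 CPM in WT, but as described by the study both alleles change the protein sequence, which counts per gene do not check. The 3 leaf mesophyll markers made up 3.518% and 3.53% of all counts in *fio1-2* and 4.157% and 3.988% in *fio1-1*, against 3.403% and 3.376% in WT. In *fio1-2*, *LHCB1.3* rose (log2 fold change 0.31), whereas *RBCS1A* (-0.25) and *CA1* (-0.64) fell. In *fio1-1*, 2 of the 3 rose and 0 fell. The 5 root markers summed to 63.8 and 63.3 CPM in *fio1-2* and to 36.4 and 43.2 CPM in *fio1-1*, against 46.2 and 45.6 CPM in WT. Of the 5, 2 rose in *fio1-2* and 1 fell in *fio1-1*. Over all tested genes, 16.4% rose and 16.1% fell in *fio1-2*, and 14.2% rose and 14.3% fell in *fio1-1*. The 5 floral organ markers summed to 17.4 and 18.4 CPM in *fio1-2* and to 8.53 and 7.44 CPM in *fio1-1*, against 7.86 and 8.17 CPM in WT. Of these only *SEP3* was tested, and it rose in *fio1-2* (log2 fold change 1.23), while *AG* was at 0 in every library. Transcripts of 9 seed and embryo markers (storage proteins and oleosins) summed to 8691 and 8992 CPM in *fio1-2* and to 41.6 and 39.4 CPM in *fio1-1*, against 0.919 and 0.673 CPM in WT. All 9 were called higher in each mutant, where 4.24% of all tested genes were in *fio1-2* and 2.92% in *fio1-1*. The seed-coat genes *BAN* and *TT10* held between 0 and 5 counts in every library. The part of these marker transcripts in the results below was not tested. In these bulk samples, fewer cells of a type and less RNA per cell cannot be told apart.

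In *fio1-2*, 5 of the 9 tested genes fell and 1 rose compared to WT, where 16.1% of all tested genes fell and 16.4% rose. In *fio1-1*, 6 of the 9 fell and 2 rose, where 14.3% of all tested genes fell and 14.2% rose. The median log2 fold change of the 9 genes was -0.35 in *fio1-2* and -0.45 in *fio1-1*, beside medians over all tested genes of 0.00 in *fio1-2* and 0.01 in *fio1-1*. The genes did not move as a block. *CHS*, *CHI*, *FLS1* and the regulators *MYB12* and *MYBL2* fell in each mutant, and *F3H* fell in *fio1-1*. The late enzymes *LDOX* and *DFR* rose in *fio1-1*. *LDOX* also rose in *fio1-2*, but narrowly (adjusted p = 0.0486 by limma-voom), and this passed in only 6 of 15 alternative analyses. The 2-fold calls in *fio1-1* were *DFR* and *LDOX* among the genes that rose (2 of 9, against 2.92% of all tested genes) and *MYB12* and *MYBL2* among those that fell (2 of 9, against 1.99%). In *fio1-2* limma-voom made 0 such calls in each direction, against 4.24% of all tested genes called higher and 1.7% called lower. The number was also 0 at an unadjusted p under 0.05, and with edgeR or DESeq2. The unadjusted p could give no other number, since no log2 fold change of the 9 genes reached 1 in size. The largest was that of *MYB12* (-0.89).

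**Figure D1:**
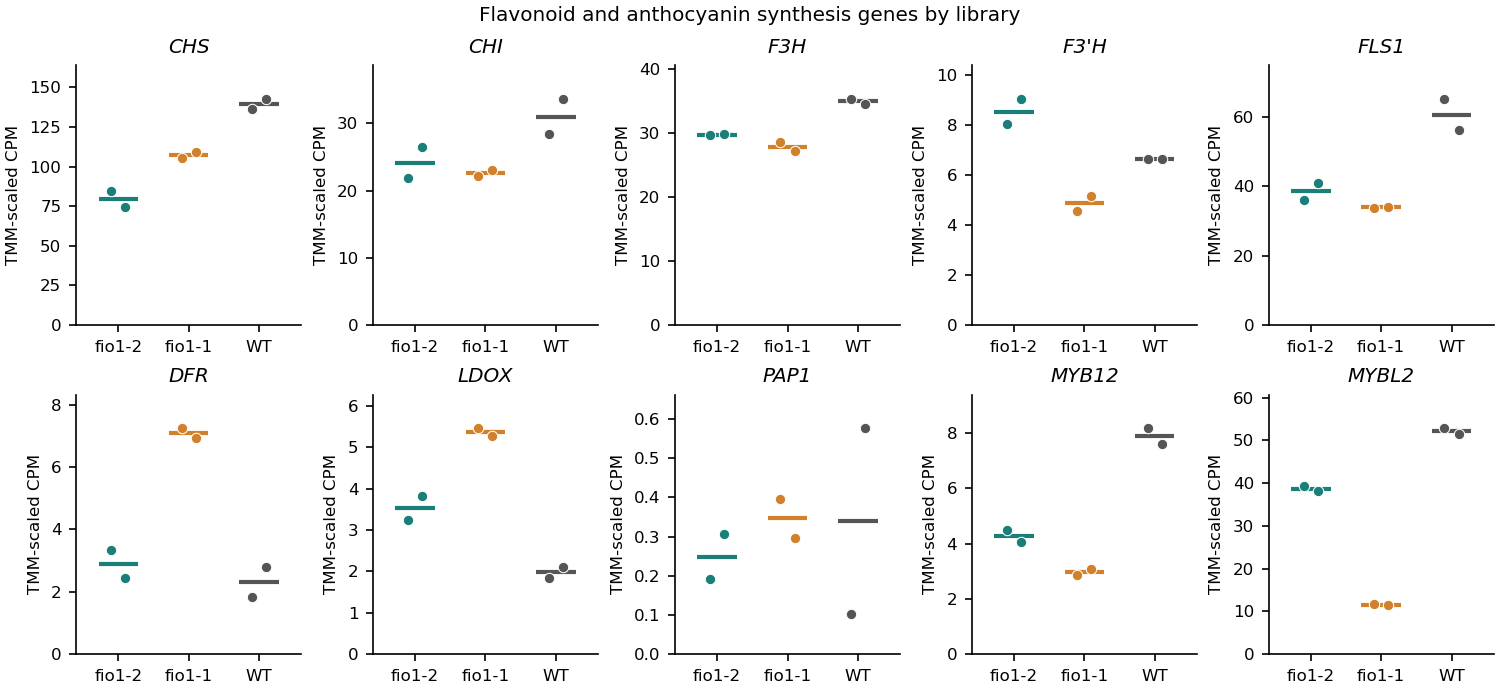
TMM-scaled CPM (linear axes starting at 0) of the 10 genes in *fio1-2*, *fio1-1* and WT. Each point is a library and each bar the mean of 2. *CHS*, *CHI*, *F3H*, *FLS1*, *MYB12* and *MYBL2* were highest in WT, *DFR* and *LDOX* were highest in *fio1-1*, and *PAP1* rested on 1 to 6 counts per library.

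The sequences before the start codons of the early enzyme genes are shown because MYB12 and its relatives bind AC elements there. A window of 500 bases before the start codon was searched on both strands for 4 AC elements. These were ACCTACC and the related ACCAACC, together with ACCTAAC and the related ACCAAAC. Of 23969 genes searched in the same way, 26.2% held at least 1 AC element, and of the 10 genes 6 did, among them 4 of the 5 early enzymes. *F3'H*, *LDOX*, *MYB12* and *MYBL2* had no match in the window. The stretches of 30 bases below are from the RefSeq TAIR10.1 genome, written 5′ to 3′ on the strand of the gene, with the AC element in capitals.
CHS first element: ccgtccatctaACCTACCacactctcatct
CHS second element: tttccaaatacACCTAACttgtttagtaca
CHI: taactattgctACCTACCcttctctcttct
F3H: agtagtaccgtGGTAGGTagctagcgacct
FLS1: caaaacttggtACCAAACtcgtgagtgacg
These lie at chr5:4488607-4488636 and chr5:4488685-4488714 (plus strand) for *CHS*, chr3:20431498-20431527 (minus strand) for *CHI*, chr3:19025255-19025284 (plus strand) for *F3H* and chr5:2803805-2803834 (plus strand) for *FLS1*. The element of *F3H* is in the opposite orientation. The stretches of *CHS*, *CHI* and *F3H* lie inside the annotated gene, upstream of the start codon, and that of *FLS1* spans the annotated gene start. *CHS*, *CHI* and *FLS1* fell in each mutant, and *F3H* fell in *fio1-1*. The other genes with an element were *DFR*, which rose in *fio1-1*, and *PAP1*, which was not tested. Of the genes without a match, *MYB12* and *MYBL2* fell in each mutant, *LDOX* rose in each (narrowly in *fio1-2*) and *F3'H* passed in neither. A match is a description of the sequence and not evidence of binding.

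*CHS* (AT5G13930, chromosome 5, 4488476 to 4490264) encodes chalcone synthase, the entry enzyme of the pathway. It was at 84.7 and 74.7 CPM in *fio1-2* and at 105 and 109 CPM in *fio1-1*, against 136 and 143 CPM in WT. The 3 genotypes did not overlap, and *fio1-2* was lowest. *CHS* fell by 0.82 (log2) in *fio1-2* (SE 0.06, adjusted p = 7.832e-19 by limma-voom) and by 0.38 in *fio1-1* (SE 0.06, adjusted p = 2.082e-07). The difference of *fio1-2* from *fio1-1* was -0.44 (SE 0.06, adjusted p = 7.234e-08). A gene on the other strand, AT5G13940, overlaps *CHS* but held no more than 1 count in any library.

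*CHI* (AT3G55120, chromosome 3, 20430059 to 20431597) encodes chalcone isomerase, which closes the ring of the chalcone. Its level was 21.9 and 26.5 CPM in *fio1-2* and 22.1 and 23.1 CPM in *fio1-1*, against 28.4 and 33.6 CPM in WT. Each mutant lay below WT, while the mutants overlapped each other. The log2 fold change was -0.35 in *fio1-2* (SE 0.11, adjusted p = 0.0073 by limma-voom) and -0.45 in *fio1-1* (SE 0.11, adjusted p = 0.00109). Without WT replicate 2, these were -0.23 (adjusted p = 0.249) and -0.33 (adjusted p = 0.0933), so that *CHI* no longer passed in either mutant. The decrease in *fio1-2* was also lost without *fio1-2* replicate 1 (-0.23, adjusted p = 0.151) and with DESeq2 (adjusted p = 0.0985).

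*F3H* (AT3G51240, chromosome 3, 19025192 to 19026872) encodes flavanone 3-hydroxylase, the next step. It was at 29.7 and 29.8 CPM in *fio1-2* and at 28.6 and 27.2 CPM in *fio1-1*, against 35.3 and 34.6 CPM in WT, and neither mutant overlapped WT. *F3H* fell by 0.33 (log2) in *fio1-1* (SE 0.10, adjusted p = 0.00833 by limma-voom), a call that did not pass with DESeq2 (adjusted p = 0.0788), without WT replicate 1 (0.0631) or without *fio1-1* replicate 2 (0.0824). In *fio1-2* the log2 fold change of -0.23 (SE 0.09) missed the threshold at an adjusted p of 0.05005. A second gene, AT3G51238, covers *F3H* on the other strand and had nearly the same level, with 29.97 and 29.29 CPM in *fio1-2* and 27.8 and 27.6 CPM in *fio1-1*, against 34.5 and 31.5 CPM in WT. Since the counting is not stated to use strand, reads of this pair cannot be told apart and the values of *F3H* are uncertain.

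*FLS1* (AT5G08640, chromosome 5, 2803833 to 2805606) encodes the main flavonol synthase, which turns dihydroflavonols into flavonols and so draws on the substrate that DFR also uses. Libraries of *fio1-2* had 36.2 and 40.9 CPM and those of *fio1-1* had 33.7 and 34.1 CPM, against 65.1 and 56.2 CPM in WT. All 4 mutant libraries lay well below the WT libraries. *FLS1* fell by 0.64 (log2) in *fio1-2* (SE 0.08, adjusted p = 1.515e-09 by limma-voom) and by 0.83 in *fio1-1* (SE 0.09, adjusted p = 4.225e-12). The mutants did not overlap each other, but their difference of 0.19 (95% interval 0.00 to 0.38) had an adjusted p of 0.166.

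*F3'H* (AT5G07990, chromosome 5, 2560328 to 2563137) encodes flavonoid 3'-hydroxylase, which adds the hydroxyl group that separates quercetin from kaempferol and cyanidin from pelargonidin. It had 8.02 and 9.02 CPM in *fio1-2* and 4.56 and 5.16 CPM in *fio1-1*, against 6.64 and 6.63 CPM in WT. The libraries of *fio1-2* lay above WT and those of *fio1-1* below it. Neither difference from WT passed the test, with log2 fold changes of 0.36 in *fio1-2* (adjusted p = 0.145 by limma-voom) and -0.45 in *fio1-1* (adjusted p = 0.146). Compared directly, *fio1-2* exceeded *fio1-1* by 0.81 (SE 0.21, adjusted p = 0.0034). This call was lost with DESeq2 (adjusted p = 0.0566), without *fio1-1* replicate 1 (0.0762) and without *fio1-2* replicate 2 (0.05002).

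Summed over the 5 early enzymes, the level was 180 and 181 CPM in *fio1-2* and 194 and 199 CPM in *fio1-1*, against 272 and 274 CPM in WT. Per kilobase of exon, *CHS* was the most abundant of the 5 in every genotype, with 46.8 CPM in *fio1-2* and 62.9 CPM in *fio1-1*, against 81.9 CPM in WT. *F3'H* was the least abundant, with 4.42 CPM per kilobase in *fio1-2* and 2.52 in *fio1-1*, against 3.44 in WT. *FLS1* ranked second in WT at 37.5 CPM per kilobase, and *CHI* and *F3H* followed at 27.9 and 23.2. In *fio1-1*, *FLS1*, *CHI* and *F3H* lay close together at 21.0, 20.3 and 18.5 CPM per kilobase, as they did in *fio1-2* at 23.8, 21.7 and 19.7.

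*DFR* (AT5G42800, chromosome 5, 17164093 to 17166032) encodes dihydroflavonol reductase, the step that commits the substrate to anthocyanins and, in the seed coat, to proanthocyanidins. It held 35 and 32 counts in *fio1-2* and 73 and 70 counts in *fio1-1*, against 18 and 29 counts in WT. These were 3.34 and 2.45 CPM in *fio1-2* and 7.24 and 6.94 CPM in *fio1-1*, against 1.84 and 2.79 CPM in WT. Both *fio1-1* libraries stood apart from the rest, whereas *fio1-2* overlapped WT. *DFR* rose in *fio1-1* with a log2 fold change of 1.62 (3.07-fold, SE 0.30, adjusted p = 1.27e-05 by limma-voom). In *fio1-2* the log2 fold change was 0.29 (95% interval -0.38 to 0.97, adjusted p = 0.551), and it lay 1.32 below that of *fio1-1* (SE 0.26, adjusted p = 5.93e-05). The rise in *fio1-1* passed in all 15 alternative analyses, with log2 fold changes between 1.33 and 1.92.

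*LDOX* (AT4G22880, chromosome 4, 12004726 to 12006209) encodes leucoanthocyanidin dioxygenase, which forms the coloured anthocyanidins from the product of DFR. Its level was 3.24 and 3.82 CPM in *fio1-2* and 5.45 and 5.26 CPM in *fio1-1*, against 1.84 and 2.11 CPM in WT, with no overlap between genotypes. *LDOX* rose in *fio1-1* with a log2 fold change of 1.42 (2.67-fold, SE 0.32, adjusted p = 0.00035 by limma-voom), which passed in all 15 alternatives. *LDOX* also rose in *fio1-2*, by 0.83 (SE 0.33), with an adjusted p of 0.0486. That call passed in 6 of 15 alternatives, with adjusted p-values between 0.0305 and 0.221. It was lost in 5 of the 6 analyses that left out a library and with DESeq2. The difference of *fio1-2* from *fio1-1* was -0.59 (95% interval -1.09 to -0.08, adjusted p = 0.103).

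The sequences before the start codons of these late genes are shown because each holds a G-box, CACGTG, a motif bound by light-regulated factors such as HY5 and by bHLH factors. A G-box was found in 9.99% of all windows of 500 bases searched and in 6 of the 10 genes, namely *CHI*, *F3H*, *DFR*, *LDOX*, *PAP1* and *MYB12*. The G-box is in capitals.
DFR first G-box: accaacgttcccCACGTGcttctccggttg
DFR second G-box: ccggttggtactCACGTGaccggcagcttc
LDOX: agtagaggtgaaCACGTGgagacacgctta
They lie on the minus strand at chr5:17166029-17166058, chr5:17166006-17166035 and chr4:12006494-12006523 in TAIR10.1. Both stretches of *DFR* span the annotated gene start, and that of *LDOX* lies upstream of its gene. *DFR* also holds 2 AC elements, 1 of them between its G-boxes.

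Per kilobase of exon, the level of *DFR* over that of *FLS1*, the enzymes that share a substrate, was 0.0983 and 0.0637 in the *fio1-2* libraries and 0.229 and 0.217 in the *fio1-1* libraries, against 0.0300 and 0.0528 in WT. The 3 genotypes did not overlap in this ratio, in which *fio1-1* was highest. In *fio1-2*, however, *DFR* itself overlapped WT (log2 fold change 0.29, adjusted p = 0.551 by limma-voom), whereas *FLS1* fell. Neither this ratio nor the next was tested or compared with other pairs of genes. Both set a gene that rose in *fio1-1* over one that fell. The level of *LDOX* over *FLS1* was 0.104 and 0.108 in *fio1-2* and 0.187 and 0.178 in *fio1-1*, against 0.0326 and 0.0435 in WT. Even so, *FLS1* remained the more abundant transcript in every library. Summed, *DFR* and *LDOX* had 6.58 and 6.27 CPM in *fio1-2* and 12.7 and 12.2 CPM in *fio1-1*, against 3.68 and 4.90 CPM in WT, which is a small fraction of the early enzyme transcripts.

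**Figure D2:**
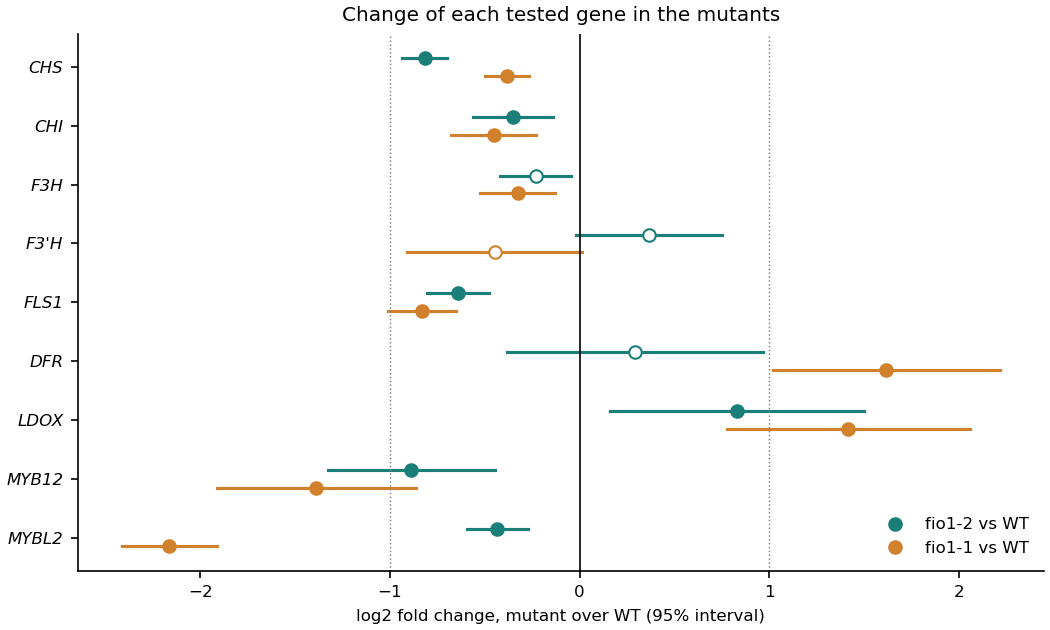
Log2 fold change (horizontal axis) of the 9 tested genes in *fio1-2* and *fio1-1* over WT, with limma-voom 95% intervals. Filled points had an adjusted p under 0.05, and dotted lines mark 2-fold. *DFR* (1.62) and *MYBL2* (-2.16) were changed most in *fio1-1*, and for both the *fio1-2* point lay nearer to 0.

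*MYBL2* (AT1G71030, chromosome 1, 26795052 to 26796532) encodes the inhibitor of the late anthocyanin branch. It was at 39.2 and 38.1 CPM in *fio1-2* and at 11.7 and 11.5 CPM in *fio1-1*, against 52.8 and 51.5 CPM in WT. The replicates were close together and the 3 genotypes were well separated. *MYBL2* fell by 2.16 (log2) in *fio1-1* (4.48-fold, SE 0.13, adjusted p = 7.79e-24 by limma-voom), the largest change among the 9 genes, and by 0.43 in *fio1-2* (SE 0.08, adjusted p = 1.29e-05). *MYBL2* was 3.32-fold higher in *fio1-2* than in *fio1-1* (log2 difference 1.73, SE 0.13, adjusted p = 2.09e-18).

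*MYB12* (AT2G47460, chromosome 2, 19476326 to 19479597) encodes an activator of *CHS*, *CHI*, *F3H* and *FLS1*. Its level was 4.49 and 4.05 CPM in *fio1-2* and 2.88 and 3.08 CPM in *fio1-1*, against 8.17 and 7.59 CPM in WT. Again no genotypes overlapped. *MYB12* fell by 0.89 (log2) in *fio1-2* (SE 0.22, adjusted p = 0.000993 by limma-voom) and by 1.39 in *fio1-1* (2.62-fold, SE 0.26, adjusted p = 1.99e-05). The mutants differed by 0.50 (95% interval -0.06 to 1.07), which did not pass the test (adjusted p = 0.241).

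*PAP1* (AT1G56650, chromosome 1, 21233555 to 21235292) encodes the MYB activator of anthocyanin production. It held 2 and 4 counts in *fio1-2* and 4 and 3 counts in *fio1-1*, against 1 and 6 counts in WT, and was not tested. The ratio of its depth-scaled summed counts was 0.735 in *fio1-2* over WT (95% exact interval 0.204 to 2.55) and 1.00 in *fio1-1* over WT (0.300 to 3.35). A change was not detectable at this depth. Such intervals cover counting error only.

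Between the mutants, 2 of the 9 genes were higher in *fio1-2* (*MYBL2* and *F3'H*) and 2 were lower (*CHS* and *DFR*), where 9.31% of all tested genes were higher and 8.76% lower. The 2-fold calls were *MYBL2* higher and *DFR* lower, 1 of 9 each, where 2.13% of all tested genes were called higher and 0.545% lower. Among the 9 genes, the alleles thus differed most at *MYBL2* and *DFR*. The other late enzyme, *LDOX*, did not pass (-0.59, adjusted p = 0.103 by limma-voom). *CHS* was the only tested gene of the 5 early enzymes that was lower in *fio1-2* than in *fio1-1* with an adjusted p under 0.05.

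The rest of the pathway was described with 50 further genes, of which 42 passed the filter. In *fio1-2*, 6 of the 42 rose, where 16.4% of all tested genes rose, and 11 of the 42 fell, where 16.1% did. In *fio1-1*, 7 of the 42 rose, where 14.2% of all tested genes rose, and 14 of the 42 fell, where 14.3% did. The counts that rose were thus near the share of all genes in each mutant. With DESeq2, 3 rose and 7 fell in *fio1-2*, against 9.63% and 9.2% of all tested genes, and 2 rose in *fio1-1*, against 8.34%. Without WT replicate 1, 2 rose and 7 fell in *fio1-2*, against 11% and 12.3% of all tested genes, and 2 rose in *fio1-1*, against 9.4%. The count that fell in *fio1-2* was also 7 without *fio1-2* replicate 2 (11.7% of all tested genes), and 4 rose in *fio1-1* without *fio1-1* replicate 2 (11.2%). The median log2 fold change was -0.01 in *fio1-2* and -0.11 in *fio1-1*. In the direct comparison of the mutants, 10 of the 42 were higher in *fio1-2*, where 9.31% of all tested genes were, and 3 were lower, where 8.76% were. The number lower was 1 without the low-count filter (6.22% of all tested genes), 1 without *fio1-2* replicate 2 (6.07%), 0 without *fio1-1* replicate 2 (7.12%) and 0 with DESeq2 (4.22%).

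**Figure D3:**
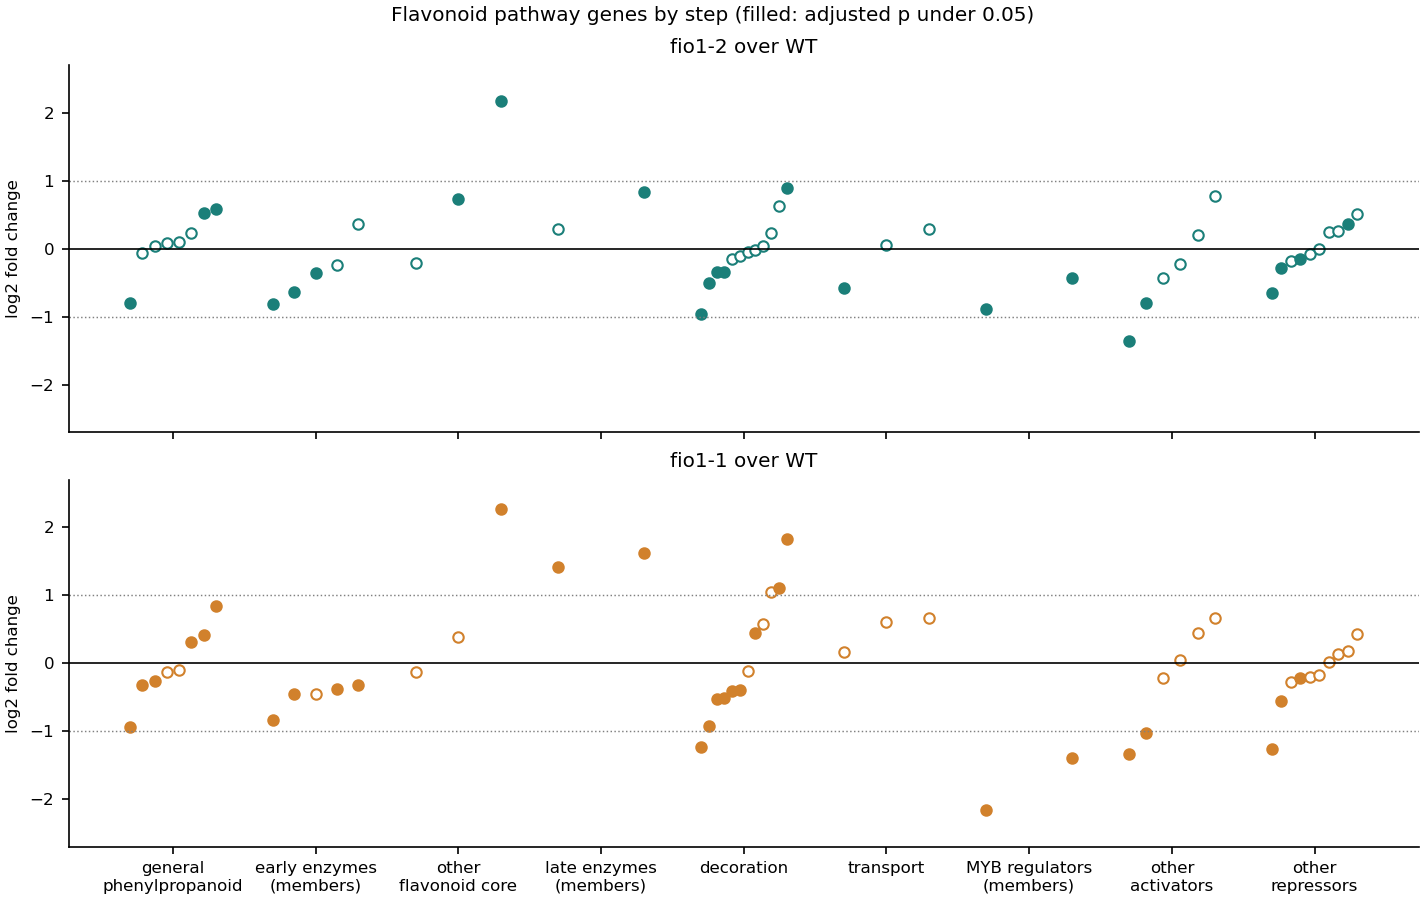
Log2 fold change over WT (vertical axes) of the 9 tested genes (marked as members) and the other 42 tested pathway genes, grouped by step, in *fio1-2* (top) and *fio1-1* (bottom). Each point is a gene, filled where the adjusted p was under 0.05, and dotted lines mark 2-fold. Among the general phenylpropanoid and the decoration genes, some rose and some fell in each mutant, while *MYB12*, *MYBL2*, *MYB111* and *HY5* fell in each.

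The general phenylpropanoid enzymes feed lignin and other products as well as flavonoids. Of 8 genes, 2 rose and 1 fell in *fio1-2*, where 16.4% and 16.1% of all tested genes did, while 3 rose and 3 fell in *fio1-1*, where 14.2% and 14.3% did. *PAL3*, a minor phenylalanine ammonia-lyase, was at 37.6 and 33.6 CPM in *fio1-2* and at 41.3 and 43.1 CPM in *fio1-1*, against 22.9 and 24.1 CPM in WT. It rose by 0.59 (log2) in *fio1-2* (adjusted p = 2.90e-06 by limma-voom) and by 0.84 in *fio1-1* (adjusted p = 2.54e-10). *4CL3*, the coenzyme A ligase tied to flavonoid synthesis and named here after its values were seen, was at 6.97 and 7.03 CPM in *fio1-2* and at 7.73 and 5.26 CPM in *fio1-1*, against 12.5 and 12.0 CPM in WT. It fell by 0.80 in *fio1-2* (adjusted p = 0.00021) and by 0.93 in *fio1-1* (adjusted p = 8.23e-05). In contrast, *PAL4* rose by 0.52 in *fio1-2* (adjusted p = 0.000198) and by 0.31 in *fio1-1* (adjusted p = 0.0442). *4CL2* rose by 0.42 in *fio1-1* (adjusted p = 0.00454). With DESeq2 these 2 calls in *fio1-1* were lost (adjusted p = 0.222 and 0.0772). *PAL1* and *PAL2* fell in *fio1-1*.

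Among 3 other genes of the flavonoid core, *FLS2*, a relative of *FLS1* with little or no known activity, held 15 and 20 counts in *fio1-2* and 17 and 15 counts in *fio1-1*, against 1 and 7 counts in WT. Its log2 fold change was 2.18 in *fio1-2* (adjusted p = 0.00684 by limma-voom) and 2.27 in *fio1-1* (adjusted p = 0.00568). Without WT replicate 1, the library with 1 count, the values were 1.08 (adjusted p = 0.260) and 1.18 (adjusted p = 0.234). With DESeq2, neither passed (adjusted p = 0.0871 and 0.0734).

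Decoration enzymes attach sugars and acyl groups. Of 12 tested genes, 1 rose and 4 fell in *fio1-2* (16.4% and 16.1% of all tested genes), while 3 rose and 6 fell in *fio1-1* (14.2% and 14.3%). *UGT84A2*, a glucosyltransferase that makes sinapoylglucose, an acyl donor for anthocyanins, had 20.4 and 20.5 CPM in *fio1-2* and 16.5 and 17.3 CPM in *fio1-1*, against 40.9 and 38.5 CPM in WT. It fell by 0.95 in *fio1-2* (adjusted p = 2.71e-12 by limma-voom) and by 1.23 in *fio1-1* (adjusted p = 1.01e-14). Both rhamnosyltransferases of flavonols, named here after their values were seen, also fell. *UGT89C1* fell by 0.51 in *fio1-2* (adjusted p = 2.16e-06) and by 0.93 in *fio1-1* (adjusted p = 2.42e-12), and *UGT78D1* fell by 0.34 in *fio1-2* (adjusted p = 0.00486) and by 0.51 in *fio1-1* (adjusted p = 6.53e-05). The decrease of *UGT78D1* in *fio1-2* did not pass with DESeq2 (adjusted p = 0.0798), without WT replicate 1 (0.0536) or without *fio1-2* replicate 2 (0.0643).

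*UGT79B1*, a xylosyltransferase of anthocyanins, held 9 and 8 counts in *fio1-2* and 18 and 16 counts in *fio1-1*, against 2 and 9 counts in WT. Its log2 fold change was 0.63 in *fio1-2* (adjusted p = 0.501 by limma-voom) and 1.82 in *fio1-1* (adjusted p = 0.0142). The rise in *fio1-1* did not pass without WT replicate 1 (0.92, adjusted p = 0.331), without *fio1-1* replicate 1 (1.74, adjusted p = 0.0651) and with DESeq2 (adjusted p = 0.168). Without WT replicate 1 the sign in *fio1-2* was negative (-0.27). *SCPL10*, a serine carboxypeptidase-like acyltransferase of anthocyanins, was at 5.73 and 7.57 CPM in *fio1-2* and at 7.34 and 8.23 CPM in *fio1-1*, against 3.06 and 4.13 CPM in WT. It rose by 0.89 in *fio1-2* (adjusted p = 0.00397) and by 1.11 in *fio1-1* (adjusted p = 0.000376). The rise in *fio1-2* did not pass without WT replicate 1 (adjusted p = 0.102) or without *fio1-2* replicate 2 (adjusted p = 0.0992), and without WT replicate 1 the change in *fio1-1* was 0.90, under 2-fold.

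Of the 3 transport genes, *GSTF12*, a glutathione transferase that carries anthocyanins toward the vacuole, had 3.72 and 2.29 CPM in *fio1-2* and 4.26 and 4.07 CPM in *fio1-1*, against 2.65 and 2.79 CPM in WT. Its log2 fold changes were 0.06 in *fio1-2* (adjusted p = 0.913 by limma-voom) and 0.60 in *fio1-1* (adjusted p = 0.138). *TT12*, a vacuolar transporter of proanthocyanidin precursors, fell by 0.57 in *fio1-2* (adjusted p = 0.0371), a call that was lost with DESeq2 (adjusted p = 0.255) and without *fio1-2* replicate 2 (-0.21, adjusted p = 0.586), WT replicate 1 (adjusted p = 0.218) or WT replicate 2 (adjusted p = 0.0553). In *fio1-1* it was 0.16 (adjusted p = 0.593).

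Of 11 other activators, 6 were tested, and 2 of these fell in each mutant, where 16.1% of all tested genes fell in *fio1-2* and 14.3% in *fio1-1*. *MYB111*, which acts alongside *MYB12*, was at 2.39 and 1.76 CPM in *fio1-2* and at 2.08 and 1.98 CPM in *fio1-1*, against 5.21 and 5.19 CPM in WT. It fell by 1.35 (log2) in *fio1-2* (adjusted p = 0.000249 by limma-voom) and by 1.33 in *fio1-1* (adjusted p = 0.000736). *HY5*, a bZIP factor that promotes light responses and flavonoid genes, was at 14.4 and 15.4 CPM in *fio1-2* and at 13.09 and 12.50 CPM in *fio1-1*, against 27.6 and 24.6 CPM in WT. It fell by 0.80 in *fio1-2* (adjusted p = 1.20e-07) and by 1.02 in *fio1-1* (adjusted p = 2.35e-09). The value in *fio1-1* was under 2-fold without WT replicate 1 (-0.94), without *fio1-1* replicate 2 (-0.99) and with upper-quartile scaling (-0.98).

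The list of repressors held 10 genes, all tested. In *fio1-2*, 3 fell and 1 rose, where 16.1% and 16.4% of all tested genes did, and in *fio1-1*, 3 fell, where 14.3% did. *KFBCHS*, an F-box protein that directs chalcone synthase protein to degradation, had 227 and 211 CPM in *fio1-2* and 144 and 143 CPM in *fio1-1*, against 347 and 338 CPM in WT. It fell by 0.65 in *fio1-2* (adjusted p = 3.58e-21 by limma-voom) and by 1.26 in *fio1-1* (adjusted p = 1.50e-33), and the mutants differed by 0.61 (adjusted p = 2.43e-16). The activators *MYB12*, *MYB111* and *HY5* and the repressors *MYBL2* and *KFBCHS* all fell in each mutant. However, *MYB111*, *HY5* and *KFBCHS* were named because of their test results. Of the 6 other activators tested, 4 did not pass in either mutant. Of the 10 repressors, 6 did not pass in *fio1-2* and 7 in *fio1-1*. *MYB3* rose in *fio1-2* (log2 fold change 0.36), a call lost with DESeq2 (adjusted p = 0.288).

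**Figure D4:**
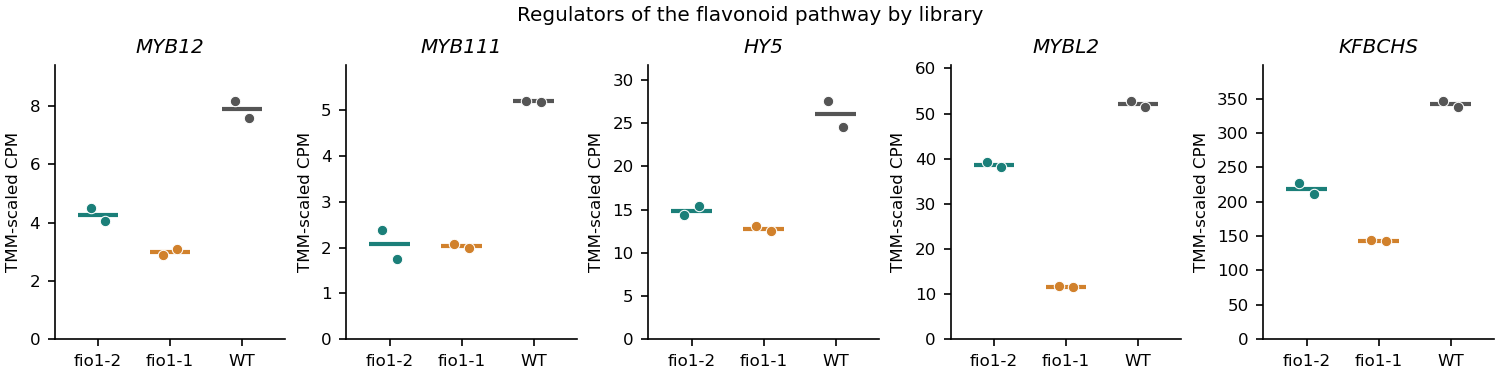
TMM-scaled CPM (linear axes starting at 0) of 3 activators (*MYB12*, *MYB111*, *HY5*) and 2 repressors (*MYBL2*, *KFBCHS*) in *fio1-2*, *fio1-1* and WT, with a point per library and a bar at the mean of 2. All 5 were highest in WT. *MYB12*, *HY5*, *MYBL2* and *KFBCHS* were lower in *fio1-1* than in *fio1-2* without overlap. This difference passed the limma-voom test for *MYBL2* and *KFBCHS* only. *MYB111*, *HY5* and *KFBCHS* were picked by their test results.

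The genes whose levels followed *CHS* most closely over the 6 libraries were AT3G13226, AT5G42765, *HMGB2*, AT1G27480 and *FUG1*, with Pearson's r of log2 CPM between 0.996 and 0.997 among 13261 genes with a mean of at least 10 CPM. The 6 points share 3 genotypes, so r describes these libraries only. Like *CHS*, all 5 were lowest in *fio1-2* and highest in WT, but over a narrower range. *HMGB2*, for example, was at 233.5 and 223.8 CPM in *fio1-2* and at 245.3 and 246.4 CPM in *fio1-1*, against 261 and 261.2 CPM in WT.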

How the data were processed

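RNA-seq was performed on 6 libraries of 14-day-old seedlings. The authors trimmed reads with Trim Galore 0.6.3, aligned them to TAIR10 with HISAT2 2.1.0, and deposited raw counts per gene from HTSeq 0.9.1. Use of strand and of reads with several alignments is not given in the sources used here, so overlapping genes and near-identical copies are uncertain. Deposited tables with the authors' own log2 fold changes and p-values were not used.

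Counts were filtered with filterByExpr (21268 genes kept) and scaled by TMM (factors 0.983 to 1.01). A single limma-voom fit held all 6 libraries with a mean per genotype and 3 residual degrees of freedom. To these the fit added 62.14 prior degrees of freedom, drawn from the spread of all tested genes. Adjusted p-values are Benjamini-Hochberg over all tested genes, two-sided, from limma-voom unless another tool is named. Fits were run in R 4.3.3 with limma (3.58.1), with edgeR (4.0.16) and DESeq2 (1.42.0) as alternatives, and were tested on simulated data. The 15 alternatives were edgeR, DESeq2, 2 other scalings, 2 other filters, a fit of only the groups compared, a replicate block, a robust prior and the removal of each library in turn. Replicate counts differed by more than sampling noise.

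The genes and lists were chosen with earlier results of these data known. Beside the 10 genes, pathway genes were named where called in any comparison or where their adjusted p was the smallest of their list in a mutant, and the 5 genes most like *CHS* were named. Gene models and sequences are from RefSeq TAIR10.1. Start codons are those of the transcript with the longest coding sequence. Levels per kilobase use the merged length of all annotated exons of a gene.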

Additional observations from a re-analysis of the deposited data

Results flagged for a closer look

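For 4 of the 9 tested genes the effect of *fio1-2* differed from that of *fio1-1* in the direct limma-voom comparison of the mutants, and for this reason they merit a closer look. The log2 fold change in *fio1-2* minus that in *fio1-1* was 1.73 for *MYBL2*, 0.81 for *F3'H*, -0.44 for *CHS* and -1.32 for *DFR*. The adjusted p-values were 2.09e-18 for *MYBL2*, 0.0034 for *F3'H*, 7.23e-08 for *CHS* and 5.93e-05 for *DFR*. In each case the libraries of the mutants did not overlap. That adds no support, because the 4 genes were picked by this same comparison.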

How the results depend on the processing

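Over 15 alternatives, 405 values of single genes were recomputed. Of these, 380 kept their direction and side of the threshold, 19 lost the call and 5 gained it. The remaining 1 changed sign without passing the test in either analysis, the difference of *fio1-2* from *fio1-1* at *CHI*, which was 0.10 and ranged from -0.049 (without *fio1-2* replicate 2) to 0.23 (without *fio1-2* replicate 1) on leaving out a library. The changes of *CHS*, *FLS1*, *MYB12* and *MYBL2* in each mutant and of *DFR* and *LDOX* in *fio1-1* passed in every alternative. The number of the 9 genes that rose in *fio1-2* was 1 (*LDOX*) and became 0 with DESeq2, without the low-count filter, with only the groups compared and with the replicate block, and was 0 to 1 on leaving out a library. The number higher in *fio1-2* than in *fio1-1* was 2, and 1 with DESeq2 and 1 to 2 on leaving out a library. Of the other pathway genes, 7 rose in *fio1-1*, against 2 with DESeq2 and 2 to 7 on leaving out a library. In *fio1-2*, 6 rose, against 3 with DESeq2 and 2 to 7 on leaving out a library, and 11 fell, against 7 with DESeq2 and 7 to 12 on leaving out a library. The number lower in *fio1-2* than in *fio1-1* was 3, against 0 with DESeq2, 1 without the low-count filter and 0 to 2 on leaving out a library. The cause was not tested. Same-numbered libraries did not deviate together (correlations between -0.03 and 0.00 across genotypes), so the replicate number is not a pairing, and under the replicate block *LDOX* in *fio1-2* had a log2 fold change of 0.83 with an adjusted p of 0.0522. Depth limits *PAP1*, *FLS2* and *UGT79B1*, with at most 6, 20 and 18 counts per library.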
